A study of Mus musculus with 4 samples.

Results

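The genes described here are 10 receptor chains through which a CD4 T cell reads interleukins and interferon-γ, namely Il2ra, Il2rb, Il2rg, Il4ra, Il7r, Il21r, Il6ra, Il6st, Il10ra and Ifngr1. They were taken by symbol from the gene column of a mouse single-colour microarray, with every probe of each gene kept, and they are 10 of the 32943 genes with a name on it. Their 19 probes gave 2 genes with 1 probe, 7 with 2 and 1 with 3, and 16 of the 19 were well above background on all 4 arrays. The study asked what the Nr4a nuclear receptors do when naive CD4 T cells are turned into induced regulatory T cells (iTreg cells). Total RNA of 4 samples was measured, with 1 array each for wild-type (WT) naive T cells, Nr4a triple knockout (Nr4a-TKO) naive T cells, WT cells after 3 h of iTreg culture and Nr4a-TKO cells after 3 h of iTreg culture. Nr4a-TKO cells combined floxed alleles of Nr4a1 and Nr4a2 with an Nr4a3-/- allele on a C57BL/6J background, and the driver of the Cre recombinase is not given in the sources used here. Mice were 6 to 8 weeks old per the methods. All 4 groups started from spleen and lymph node cells sorted for a naive surface profile that included CD4+, CD44 low, CD25 low and Foxp3 negative. Cells of the 3 h groups were then kept on plate-bound anti-CD3 at 2 µg/ml with anti-CD28 at 0.5 µg/ml, anti-IFN-γ and anti-IL-4 at 1 µg/ml each, IL-2 at 10 ng/ml and TGF-β1. The methods describe chimeras as the source of such naive cells, made by marrow transfer into irradiated Rag2-/- hosts 6 weeks earlier. There the knockout marrow was mixed with WT marrow while WT cells came from WT marrow alone, so that genotype and kind of chimera cannot be told apart. The methods also name mice with a transgenic antigen receptor as a source, and the labels do not say which source the arrays used.

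These chains belong to the type I and type II cytokine receptor families, which carry no kinase of their own and signal through Janus kinases (JAKs) and STAT transcription factors. Il2rg encodes the common γ chain, which is shared by the receptors for IL-2, IL-4, IL-7, IL-21 and others. Il6st encodes gp130, the shared signalling chain of the IL-6 family. A naive CD4 T cell lives on IL-7 and shows little CD25, and antigen receptor signalling is known to turn the genes of these chains over within hours, so the set of cytokines to which the cell can respond changes as it becomes an effector or a regulatory T cell.

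The windows upstream of the gene starts are shown for 5 of the chains with a probe past 2-fold below and for Il21r, whose window held the Nr4a letters, read 5′ to 3′ on the strand of the gene over the 250 bases before the start (RefSeq, GRCm38.p6). Capitals mark matches, on either strand, to the Ets letters AGGAAG, the Nr4a letters AAAGGTCA, the STAT letters TTCNNNGAA, the AP-1 letters TGANTCA and the forkhead letters TGTTTAC, and no overlap between motifs occurred in the 8 windows that matched a member.
Il2ra promoter, chr2:11642542-11642791, plus strand: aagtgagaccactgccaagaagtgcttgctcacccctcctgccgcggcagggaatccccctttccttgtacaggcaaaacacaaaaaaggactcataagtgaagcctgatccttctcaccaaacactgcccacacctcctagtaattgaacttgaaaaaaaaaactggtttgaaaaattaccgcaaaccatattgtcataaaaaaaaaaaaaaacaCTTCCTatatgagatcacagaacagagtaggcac
Il7r promoter, chr15:9529877-9530126, minus strand: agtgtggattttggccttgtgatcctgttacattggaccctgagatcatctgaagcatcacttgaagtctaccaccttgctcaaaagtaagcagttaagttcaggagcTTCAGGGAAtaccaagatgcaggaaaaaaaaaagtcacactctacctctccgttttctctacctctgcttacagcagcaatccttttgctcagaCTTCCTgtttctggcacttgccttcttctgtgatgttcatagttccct
Il6ra promoter, chr3:89913197-89913446, minus strand: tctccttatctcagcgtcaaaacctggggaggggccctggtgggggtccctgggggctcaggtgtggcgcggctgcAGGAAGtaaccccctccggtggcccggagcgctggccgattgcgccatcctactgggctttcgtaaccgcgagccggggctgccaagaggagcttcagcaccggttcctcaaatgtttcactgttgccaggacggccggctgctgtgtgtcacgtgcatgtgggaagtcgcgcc
Il6st promoter, chr13:112463820-112464069, plus strand: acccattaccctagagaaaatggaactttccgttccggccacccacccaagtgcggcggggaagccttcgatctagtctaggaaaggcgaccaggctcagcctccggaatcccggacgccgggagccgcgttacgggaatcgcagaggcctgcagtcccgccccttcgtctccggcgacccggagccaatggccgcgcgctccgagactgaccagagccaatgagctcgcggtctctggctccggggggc
Ifngr1 promoter, chr10:19591699-19591948, plus strand: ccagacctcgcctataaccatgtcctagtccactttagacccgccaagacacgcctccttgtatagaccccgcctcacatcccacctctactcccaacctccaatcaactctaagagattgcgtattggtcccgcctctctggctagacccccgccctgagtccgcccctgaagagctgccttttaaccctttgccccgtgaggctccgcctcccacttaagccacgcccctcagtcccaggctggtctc
Il21r promoter, chr7:125603179-125603428, plus strand: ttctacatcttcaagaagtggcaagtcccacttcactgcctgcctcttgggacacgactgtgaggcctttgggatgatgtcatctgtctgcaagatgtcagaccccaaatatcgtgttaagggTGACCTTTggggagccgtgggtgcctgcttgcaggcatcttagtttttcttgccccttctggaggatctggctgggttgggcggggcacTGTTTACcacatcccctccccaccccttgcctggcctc
A match is a description of the letters and not of a bound site. The Ets letters were in 5 of 8 member windows and in 29.5% of all 32851 windows. In Il2ra they began 34 bases before the start, in Il7r 48, in Il6ra 174, in Il4ra 7 and in Il2rg 199. One Nr4a match lay in Il21r, 127 bases before the start, against 1.34% of all windows. The same window held the forkhead letters at 38 bases, which 3.17% of all windows had. Il7r held the only STAT match, 142 bases before its start, against 7.02% of all windows. The AP-1 letters, in 6.75% of all windows, were in 0 of the 8, and the windows of Il6st and Ifngr1 held none of the 5 motifs. Il2rb and Il10ra had no window.

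On each array 66.3% to 68.9% of the spots were well above background and 0 were saturated. With 1 array a group there is no test and no difference below has a replicate check. The only measured error is technical, the spread of a probe spotted at least 5 times on 1 array. Carried to a difference of 2 such spots, it gave an SD of 0.38 below a log2 signal of 5, 0.20 between 5 and 8, and 0.17 above 8. Variation between arrays does not enter this spot spread, so it is a lower limit on the error of a difference between 2 arrays. The value between 5 and 8 rests on only 12 to 17 probes an array. Values are normalized log2 signals, and they are compared between arrays for 1 probe and never between probes. All 9 CD4 T cell markers (the CD3 chains, Cd4, Lck and others) were well above background on every array. As a check of the labels, the Nr4a1 signal was 7.04 in WT naive, 8.38 in Nr4a-TKO naive, 11.33 in WT 3 h and 11.81 in Nr4a-TKO 3 h, and the brighter Nr4a2 probe read 6.24, 6.43, 8.82 and 10.20 in the same order, so neither was lower on the arrays labelled Nr4a-TKO. Nr4a3 had 2 RefSeq probes that read lower in knockout than WT cells at 3 h, at 7.42 against 8.88 and at 7.47 against 9.33, and a probe on another transcript that was not, at 9.63 against 9.44. Whether these probes lie in the deleted exons is not given in the sources used here, so every genotype difference below is between the arrays labelled WT and Nr4a-TKO. In bulk RNA, fewer cells of a type and less RNA per cell cannot be told apart.

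Between naive T cells and 3 h of culture, the receptor chains moved mostly downward. When each gene is read from its brightest probe, Il7r, Il6ra, Ifngr1 and Il10ra were more than 2-fold lower at 3 h in WT, which is 4 of 10 genes, where 8.54% of all 23387 genes measured were that much lower, and 0 of 10 were more than 2-fold higher, where 8.39% of all genes were. In Nr4a-TKO the same 4 genes and Il6st were more than 2-fold lower (5 of 10, against 7.96% of 23869 genes) and 0 of 10 were more than 2-fold higher (against 7.75%). Both counts of 0 depend on the probe of Il2ra. Its dimmer probe, for the RefSeq transcript, was 30.4-fold higher at 3 h in WT and at least 40.9-fold higher in Nr4a-TKO. With the brightest probe for a RefSeq transcript, 1 gene was higher in each genotype. The median change of the 10 genes was -0.45 on the log2 scale in WT and -0.87 in Nr4a-TKO, where the medians of all genes were -0.051 and -0.016. Between the genotypes in naive cells, 0 of 10 genes differed by more than 2-fold in either direction, where 1.91% of 23292 genes were higher in Nr4a-TKO and 1.69% were lower. At 3 h, 1 of the 9 genes measured, Il6st, was more than 2-fold lower in Nr4a-TKO (against 1.94% of 23631 genes) and 0 were more than 2-fold higher (against 1.74%). The genes were chosen with earlier results of these data known, and the shares describe these arrays only.

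**Figure D1:**
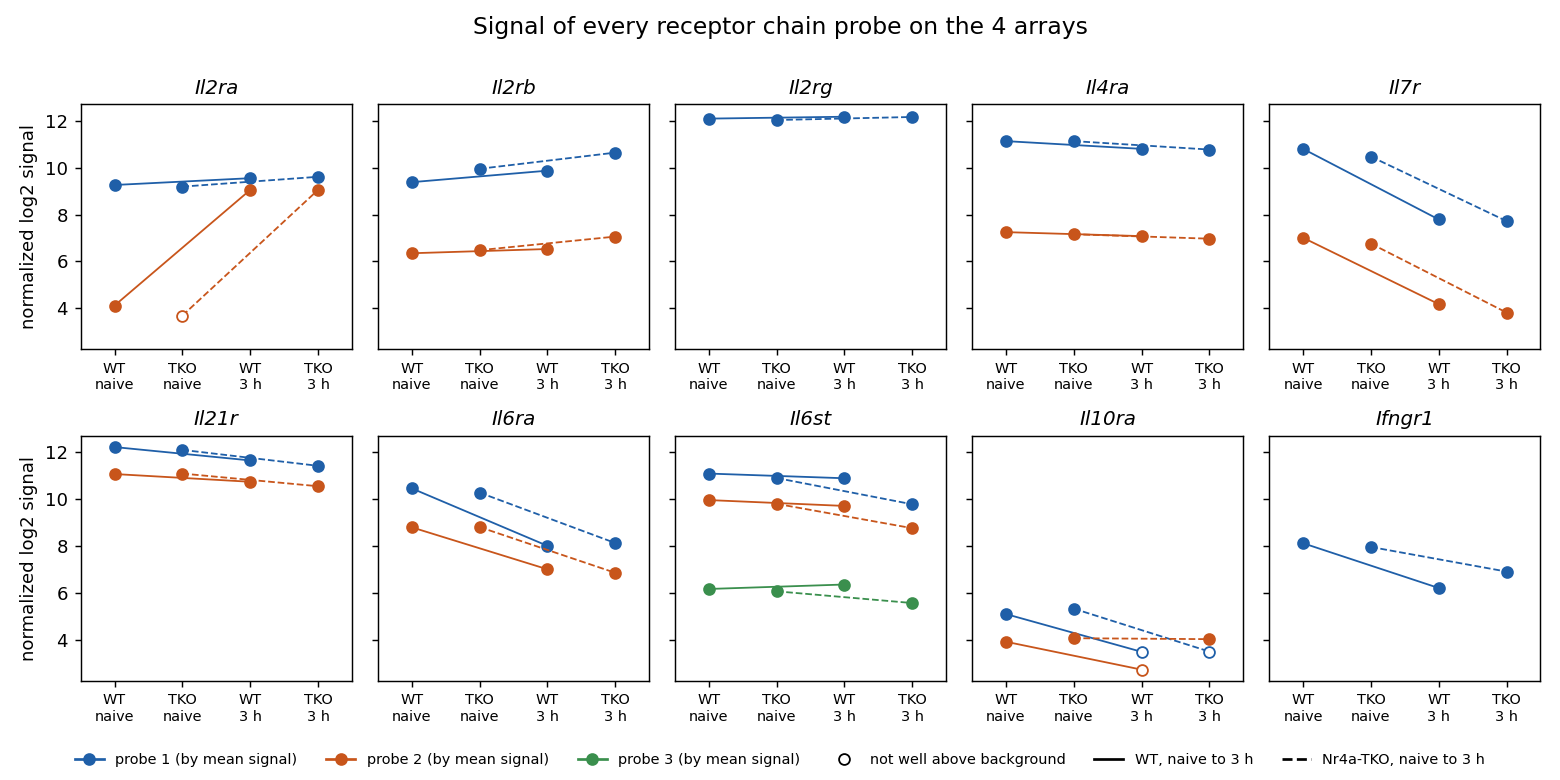
Normalized log2 signal (vertical axis) of each probe of the 10 receptor chains on the 4 arrays (horizontal axis), 1 point an array, with solid lines joining the WT arrays, dashed lines the Nr4a-TKO arrays and open points for signals not well above background. Il7r and Il6ra drop along both lines with both of their probes, Il6st drops along the dashed lines, and the 2 probes of Il2ra part in naive cells.

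Il2ra encodes CD25, the α chain that gives the IL-2 receptor its high affinity, and its 2 probes rose by very different amounts. The first bases of each are shown because the result turns on which probe is read (array files, mm9, the first 30 of 60 bases).
Il2ra probe, chr2:11570205-11570264: gaagattttgagtttgaggccagcacagag
Il2ra probe, chr2:11614744-11614803: gtggcttctgtttgatctctctcaatgata
The probe for the RefSeq transcript, which starts at 11614744, read 4.12 in WT naive, 3.69 in Nr4a-TKO naive, 9.05 in WT 3 h and 9.05 in Nr4a-TKO 3 h. Both cultured arrays were thus far above both naive ones, and the Nr4a-TKO naive signal was not well above background. The change was 4.93 on the log2 scale in WT, or 30.4-fold, and at least 40.9-fold in Nr4a-TKO. Over the 5 ways of processing the log2 change ran from 3.11 to 5.56 in WT, and its bound from 3.20 to 6.18 in the knockout, lowest with an offset of 50. By this probe the genotypes differed at 3 h by less than the spot spread. The second probe lies 44539 bases upstream, was designed on another cDNA, and read 9.26, 9.19, 9.55 and 9.61 in the same order, a change of 0.29 in WT and 0.42 in Nr4a-TKO. It had the higher mean signal, so the count of genes above took Il2ra as within 2-fold. The sort took cells low in surface CD25, the protein of this gene, so its naive level is not independent of the gate.

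Il2rb encodes the β chain of the IL-2 and IL-15 receptors, a signalling chain that memory T cells and natural killer (NK) cells carry at high levels. Its brighter probe (chr15:78311109-78311168, mm9) read 9.38 in WT naive, 9.95 in Nr4a-TKO naive, 9.87 in WT 3 h and 10.64 in Nr4a-TKO 3 h. The Nr4a-TKO array was the higher one at each stage, by 0.57 in naive cells and 0.77 at 3 h on the log2 scale, and the WT 3 h and Nr4a-TKO naive signals differed by less than the spot spread. The other probe (chr15:78309771-78309830) read 6.35, 6.48, 6.53 and 7.06, which put the genotype difference at 0.13 in naive cells, below the spot spread of 0.20, and at 0.53 at 3 h. At 3 h the difference of the brighter probe was exceeded by 693 of 23631 genes, and over 5 ways of processing the arrays it stayed between 0.74 and 0.77. Changes over the 3 h were 0.49 in WT and 0.69 in Nr4a-TKO by that probe, all within 2-fold.

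Markers of other cell states and types were read beside the Il2rb difference. The sort was for CD4+ and CD44 low cells, and its purity was not tested here. Of 7 memory T cell markers, 6 were well above background on every array (Ccr2 on none), and their summed linear signal was 2520 in WT naive, 4380 in Nr4a-TKO naive, 803 in WT 3 h and 1730 in Nr4a-TKO 3 h. Without Ahnak, a large scaffold protein, the sums were 1860, 1910, 725 and 1350, so the naive difference of the list came mostly from that gene. Cd44, an adhesion receptor of activated and memory cells, was higher by 1.55 on the log2 scale in Nr4a-TKO at 3 h, Cxcr3, a chemokine receptor, by 1.30 and Ahnak by 2.28. The rest of the list moved less at 3 h, with Id2 at 0.45, Ccl5 at 0.17 and S100a4 lower at -0.36. Ahnak was read from its brightest probe, whose WT change over the 3 h was -3.07, against -0.7 and -0.49 by its other probes. In naive cells 3 of the 6 read higher in Nr4a-TKO and 3 lower, among them Ahnak at 1.90 and S100a4, a calcium-binding protein, at -2.16. Of 7 B cell markers, all were above background, with summed signals of 1210, 1880, 938 and 1870 in the order above. All 7 read higher in Nr4a-TKO at 3 h, 3 of them by more than 2-fold, where 1.74% of all genes were. The smallest of these differences was that of Ms4a1, at 0.07, below the spot spread. In naive cells 6 of the B cell markers read higher in Nr4a-TKO and 1, Cd79b, read lower, at -0.56. The part of these cells in the Il2rb difference was not tested. Of the 5 NK cell markers, 2 of the 4 measured in naive cells and 2 of the 3 measured at 3 h were lower in Nr4a-TKO. Klrd1 had a naive difference of -1.25, a bound because the Nr4a-TKO signal was not well above background. Nkg7, a granule protein, differed by -0.77 in naive cells and -0.54 at 3 h, and Gzma by 0.34 and -0.60. The receptor Klrb1c was higher by at least 0.52 and by 0.48. The summed signal of the 5 NK cell markers, dim ones included, was 112, 96.0, 76.3 and 63.0 in the same order. Ncr1, the defining receptor, was not well above background on any array.

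Il2rg, the common γ chain, stayed nearly level. Its single probe (chrX:98459802-98459860) read 12.09, 12.03, 12.17 and 12.16 in WT naive, Nr4a-TKO naive, WT 3 h and Nr4a-TKO 3 h. All 4 arrays lay within the spot spread of one another, with changes of 0.08 in WT and 0.12 in Nr4a-TKO. The deposited values put these changes at 0.25 and 0.32, above the spot spread and within 2-fold.

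Il4ra encodes a receptor chain for IL-4 and IL-13, and Il21r the ligand-binding chain for IL-21, and both genes stayed within 2-fold throughout. For Il4ra, the probe at chr7:132712550-132712609 read 11.13, 11.13, 10.80 and 10.77 in that order of arrays. Culture was lower than naive by about the same step in both genotypes, -0.34 in WT and -0.35 in Nr4a-TKO, and with the array scaled to its 75th percentile both steps were -0.15, below the spot spread. The second Il4ra probe (chr7:132721137-132721196) read 7.25, 7.16, 7.08 and 6.97, with changes of -0.16 in WT and -0.19 in Nr4a-TKO that were below the spot spread. For Il21r, chr7:132776644-132776703 read 12.22, 12.10, 11.65 and 11.42, and the probe on another cDNA (chr7:132774961-132775020) read 11.07, 11.09, 10.74 and 10.55. Both Il21r probes were thus lower at 3 h, with WT changes of -0.57 and -0.33 and Nr4a-TKO changes of -0.68 and -0.54. Over 5 ways of processing the arrays the smallest of these were -0.40 and -0.13 for WT. Genotype differences at 3 h were -0.23 and -0.19.

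Il7r encodes the α chain of the IL-7 receptor, on which naive T cells depend for survival, and it had the deepest drop of the 10 genes that was measured on both sides. The RefSeq probe (chr15:9436822-9436881) read 10.80 in WT naive, 10.47 in Nr4a-TKO naive, 7.79 in WT 3 h and 7.72 in Nr4a-TKO 3 h. The cultured arrays lay below both naive arrays by 8.08-fold in WT and 6.76-fold in Nr4a-TKO. Only 126 of 23387 genes had a larger drop in WT, and 146 of 23869 in Nr4a-TKO. A probe on another cDNA (chr15:9442570-9442629) read 7.01, 6.76, 4.18 and 3.82, a drop of 7.09-fold in WT and 7.70-fold in Nr4a-TKO. The order of the 2 genotypes in size of drop was therefore not the same for both probes, and the genotype difference at 3 h was -0.07 by the first and -0.36 by the second, whose spot spread is 0.38. Over the 5 ways of processing, the first probe's change ran from -3.01 to -2.76 in WT and the second's from -3.40 to -1.39.

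Il6ra encodes the chain that binds IL-6, a cytokine that turns TGF-β-treated cells from the regulatory to the Th17 fate. The brighter probe (chr3:89674054-89674113) read 10.46, 10.28, 8.01 and 8.13 in WT naive, Nr4a-TKO naive, WT 3 h and Nr4a-TKO 3 h. Again the cultured arrays stood apart from the naive ones, by 5.46-fold in WT and 4.45-fold in Nr4a-TKO. The second probe (chr3:89680743-89680802) read 8.80, 8.81, 7.01 and 6.86, a drop of 3.46-fold in WT and 3.87-fold in Nr4a-TKO. Both genotypes were within the spot spread of each other at each stage by the second probe, and by the brighter one the naive difference was -0.18 and that at 3 h 0.12. Most markers of the naive state went down alongside Il7r and Il6ra. The list was Ccr7, Klf2, Lef1, S1pr1, Satb1 and Tcf7, all well above background on the 4 arrays. At 3 h, 4 of 6 were more than 2-fold lower in WT, where 8.54% of all genes were. For Nr4a-TKO the count was 5 of 6, against 7.96% of all genes. Satb1 went the other way, with log2 changes of 0.34 (WT) and 0.36 (Nr4a-TKO). Ccr7 stayed within 2-fold between the WT arrays, at -0.42. Klf2, a factor of quiescent T cells, had a log2 change of -3.41 in the WT pair of arrays and -3.29 in the other. The summed signal of these 6 went from 14400 to 6560 in WT and from 14000 to 6600 in Nr4a-TKO.

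**Figure D2:**
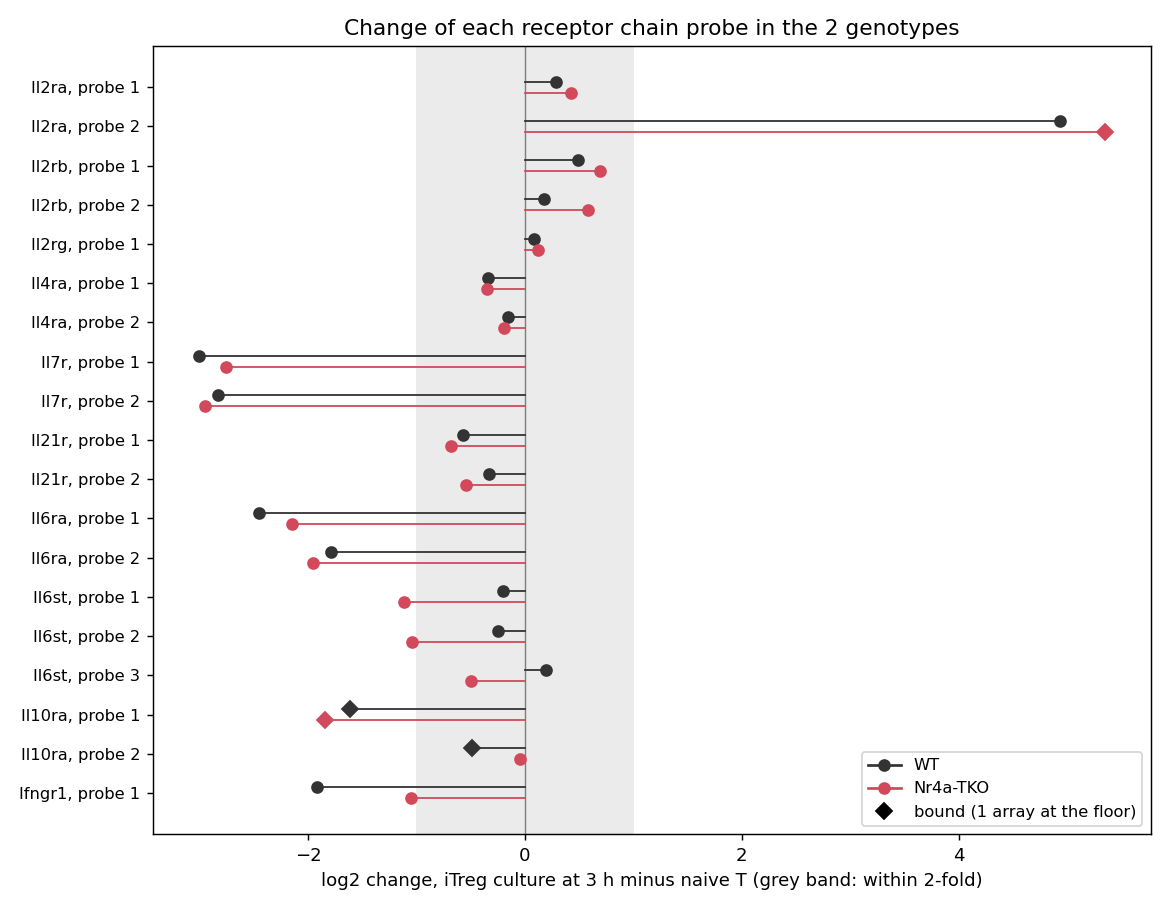
Log2 change from naive T cells to 3 h of iTreg culture (horizontal axis) of each of the 19 probes (vertical axis, probes of a gene numbered by mean signal), in WT (dark) and Nr4a-TKO (red), with diamonds for bounds where 1 array was not well above background. Il7r, Il6ra and Ifngr1 lie left of the grey 2-fold band in both genotypes, the RefSeq probe of Il2ra lies far to its right, and the 2 brighter probes of Il6st leave the band only in Nr4a-TKO.

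Il6st, the gp130 chain that pairs with Il6ra and also serves IL-27, leukemia inhibitory factor and oncostatin M, had the largest genotype difference at 3 h of the 9 genes measured there, under all 5 ways of processing. Its brightest probe (chr13:113296586-113296645) read 11.09 in WT naive, 10.90 in Nr4a-TKO naive, 10.89 in WT 3 h and 9.78 in Nr4a-TKO 3 h. The first 3 of these lay within 0.20 of each other and the Nr4a-TKO 3 h array stood below them all. The second probe (chr13:113294595-113294654) read 9.96, 9.80, 9.71 and 8.76. One more, on another cDNA (chr13:113273739-113273798), read 6.17, 6.07, 6.36 and 5.57. All 3 probes put the Nr4a-TKO 3 h array lowest, and the genotype difference at 3 h was -1.11, -0.95 and -0.79 on the log2 scale, each several times the spot spread of a difference at its level. In naive cells it was -0.19, -0.16 and -0.10. By the brightest probe the WT change was -0.20 and the Nr4a-TKO change -1.12, a gap of -0.92 between the genotypes, and 635 of 22347 genes had a gap further below 0. Over the 5 ways of processing, the difference at 3 h by that probe ran from -1.11 to -1.07, while the Nr4a-TKO change ran from -1.12 to -0.89 and so did not pass 2-fold in all of them. Of the 9 CD4 T cell markers 6 were lower in Nr4a-TKO at 3 h too: the list had a median genotype difference of -0.31, with Cd28 at -0.71 and Thy1 at -0.70, and their summed signal was 19800 in WT and 15200 in Nr4a-TKO. The part of this in the Il6st difference was not tested.

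**Figure D3:**
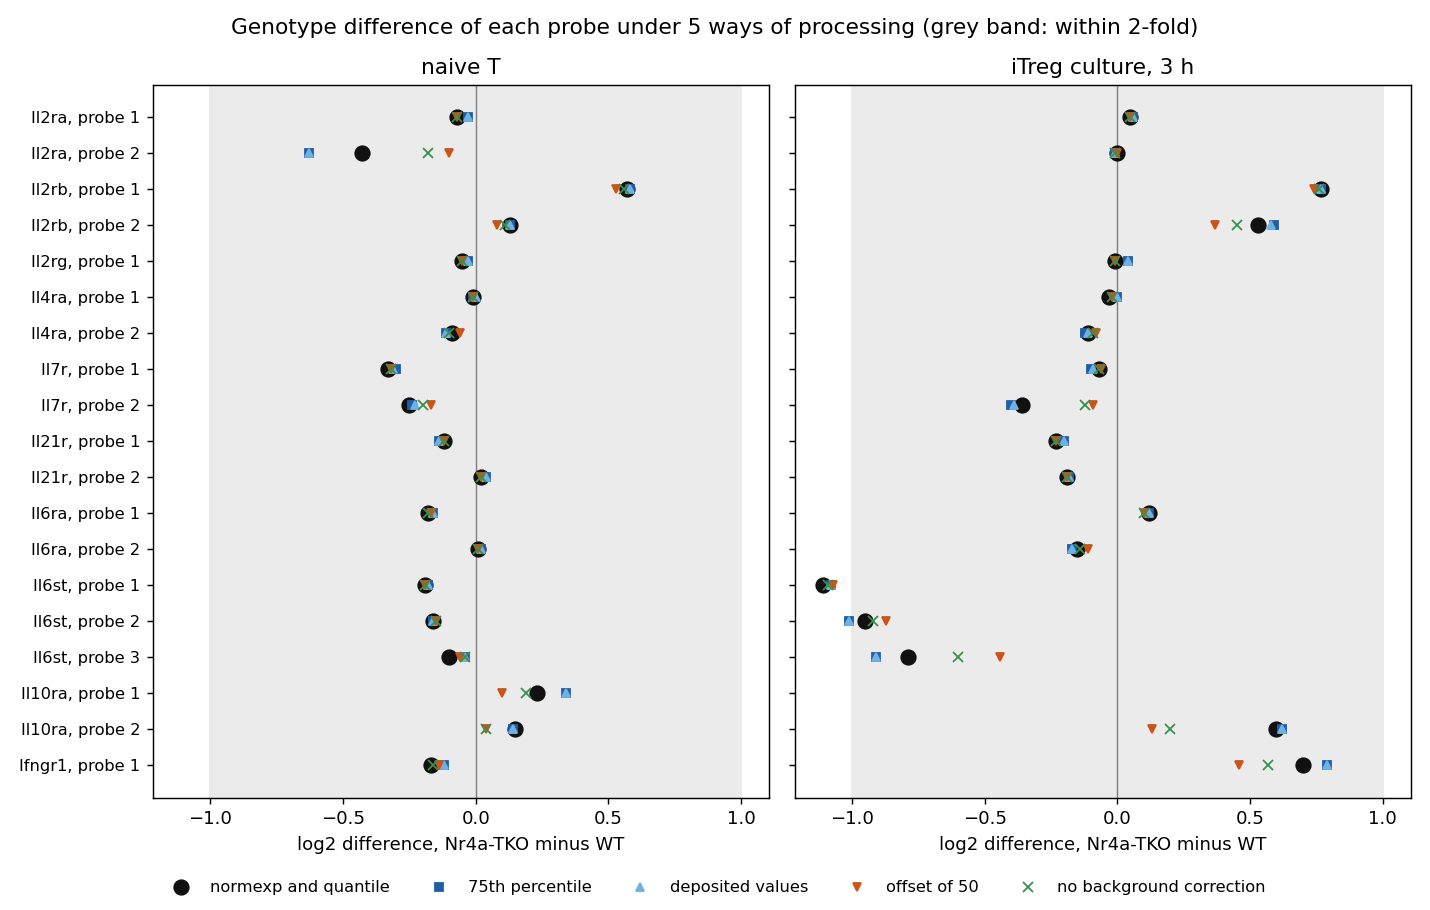
Log2 difference, Nr4a-TKO minus WT (horizontal axis), of each probe (vertical axis) in naive T cells (left) and at 3 h (right), with 1 symbol for each of 5 ways of processing and the 2-fold band in grey. The probes of Il6st sit at the left edge at 3 h, those of Il2rb and Ifngr1 to the right of 0, and the dim probes scatter most between symbols.

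Il10ra encodes the ligand-binding chain for IL-10, an anti-inflammatory cytokine, and its signal was near the edge of what the array could measure. Its 2 probes start only 727 bases apart and disagreed, so the first bases of both are given (array files, mm9, the first 30 of 60 bases).
Il10ra probe, chr9:45061922-45061981: tcaaatggaaccacaagtgttgtgtgtttt
Il10ra probe, chr9:45062649-45062708: aaataatgactaggtcattcagaagtccct
The probe at 45061922 read 5.10 in WT naive and 5.33 in Nr4a-TKO naive and was not well above background on either 3 h array. It was therefore at least 3.06-fold lower at 3 h in WT and at least 3.57-fold lower in Nr4a-TKO, with no value for the genotype difference at 3 h. The probe at 45062649 read 3.92, 4.07 and 4.03 in WT naive, Nr4a-TKO naive and Nr4a-TKO 3 h, and was not well above background in WT 3 h (2.73). By this probe the Nr4a-TKO change was -0.05, and the WT 3 h array was at least 1.51-fold below Nr4a-TKO 3 h. With an offset of 50 added before the log, both bounds of the first probe came within 2-fold.

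Ifngr1 encodes the ligand-binding chain of the interferon-γ receptor and had 1 probe (chr10:19329923-19329982). It read 8.12 in WT naive, 7.96 in Nr4a-TKO naive, 6.21 in WT 3 h and 6.91 in Nr4a-TKO 3 h. Both cultured arrays lay below both naive ones, with WT 3 h the lowest, and the naive arrays differed by -0.17. The drop was 3.78-fold in WT and 2.07-fold in Nr4a-TKO, and the genotype difference at 3 h was 0.70 on the log2 scale, exceeded by 842 of 23631 genes. With an offset of 50 the Nr4a-TKO change was -0.81 and no longer past 2-fold. The gap between the 2 changes was 0.87, opposite in sign to that of Il6st. The other chain of this receptor, Ifngr2, read 9.06, 8.90, 7.45 and 7.73, and so dropped with it, by -1.61 in WT and -1.17 in Nr4a-TKO. Il10rb, the partner of Il10ra, read 6.95, 6.45, 5.81 and 5.96, a change of -1.14 in WT and -0.49 in Nr4a-TKO.

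The patterns of the 4 genes that dropped by more than 2-fold in both genotypes were matched against those of 15636 genes above background on all arrays, as the root mean square difference between the 4 signals after each gene's own mean is taken off. Closest to Il7r were Rnf213 (0.093) and Acss2 (0.094), and closest to Il6ra were Cnn2 (0.016) and Slc12a7 (0.030). Abi3 (0.016) and Haus4 (0.036) were closest to Il10ra, whose 3 h signals are bounds, and Pros1 (0.018) and Rbl1 (0.027) to Ifngr1. A likeness over 4 arrays is a description of 4 points only.

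Among 28 other cytokine receptor chains, the direction was again mostly down. Read from the brightest probe in WT, 0 of the 22 measured were more than 2-fold higher at 3 h and 7 were lower, with a median of -0.41. Of all genes in WT, 8.39% were that much higher and 8.54% that much lower. In Nr4a-TKO 1 of 23 was higher and 5 lower, with a median of -0.44, where 7.75% and 7.96% of all genes were. The largest drop was that of Il18r1, a chain of the IL-18 receptor, which read 7.27, 6.39, 4.09 and 4.19, a log2 change of -3.18 for WT against -2.19 for Nr4a-TKO. Others past 2-fold in both genotypes were Ifngr2, Ifnar2, a chain of the type I interferon receptor (-1.41 and -1.10), Il27ra, which pairs with gp130 (-1.30 and -1.29), and Il17ra (-1.23 and -1.62). Il1r2, the decoy receptor for IL-1, was not well above background on either naive array and read 4.83 in WT 3 h and 7.44 in Nr4a-TKO 3 h. It was thus at least 16.8-fold higher at 3 h in Nr4a-TKO and at least 1.99-fold higher in WT. The WT value is a bound, so the count of 0 above cannot place this gene within 2-fold. Its second probe was at least 2.71-fold higher in WT and at least 21.5-fold higher in Nr4a-TKO. Il1r2 was also the only chain of this list past 2-fold between the genotypes, by 2.61 at 3 h on the log2 scale. Probe choice mattered here as for Il2ra: the brightest probe of Il15ra, the α chain for IL-15, stayed flat at 15.50, 15.49, 15.55 and 15.49, while a dimmer one read 7.47, 7.50, 8.89 and 8.47.

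The kinases and factors beneath these receptors mostly stayed within 2-fold. Of 10 JAK and STAT genes, 1 was more than 2-fold higher at 3 h and 2 were lower in WT, where 8.39% and 8.54% of all genes were. In Nr4a-TKO 1 was higher and 1 lower, where 7.75% and 7.96% of all genes were. Counts this small are close to those shares. Jak1, which sits on the receptors for IL-2, IL-7, IL-6 and interferons, read 9.82, 9.59, 8.29 and 8.57. Jak2, used by interferon-γ and gp130 receptors, read 7.08, 7.19, 9.17 and 9.42 and moved in the opposite direction. Stat4, the factor of IL-12, read 7.90, 7.73, 6.16 and 6.99 and passed 2-fold in WT with -1.73, against -0.74 in Nr4a-TKO.

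Genes that answer these receptors and the ligands themselves moved in both directions. Of the response genes, 8 measured in WT and 7 in Nr4a-TKO, 3 were more than 2-fold higher at 3 h in each genotype, namely Cish, an inhibitor of STAT5 signalling (3.06 in WT and 4.14 in Nr4a-TKO), the kinase Pim1 (2.03 and 2.10) and the repressor Bcl6 (1.95 and 1.76). Socs3, which binds gp130 and blocks IL-6 signalling, was the 1 that was lower, at 8.89, 8.26, 4.67 and 5.33 on the 4 arrays, or -4.22 in WT and -2.93 in Nr4a-TKO. Of all genes, 8.39% were more than 2-fold higher and 8.54% lower in WT, and 7.75% and 7.96% in Nr4a-TKO. Between the genotypes at 3 h, 2 of 8 response genes were more than 2-fold lower in Nr4a-TKO and 0 were higher, where 1.94% and 1.74% of all genes were. The 2 were Pim1, at -1.25 and already at -1.32 in naive cells, and Socs2, at -1.20, which is a bound. Only 7 of 13 ligand genes could be measured in Nr4a-TKO and 6 in WT. Over the 3 h, 3 were more than 2-fold higher and 1 was lower in each genotype, beside the shares of all genes given above for that change. The 1 that was lower was Osm, the gene of oncostatin M, which read 7.95, 7.82, 6.51 and 6.77 by its brighter probe. Its change was -1.44 in WT and -1.05 in Nr4a-TKO, and its other probe changed by -0.32 in WT. Il2 was not well above background in WT naive and read 4.08 in Nr4a-TKO naive, 7.09 in WT 3 h and 8.28 in Nr4a-TKO 3 h, and was higher in Nr4a-TKO by 1.19 at 3 h. Lif, a gp130 ligand, was not well above background in either naive sample and read 5.66 and 7.10 at 3 h. Il21 read 5.35 in Nr4a-TKO naive, 4.66 in WT 3 h and 6.13 in Nr4a-TKO 3 h by its brighter probe and was not well above background in WT naive. A second Il21 probe read 4.59, 4.86, 4.98 and 4.77, with a genotype difference of -0.20 at 3 h against 1.47 by the first, so the 2 probes disagreed. At 3 h 4 of the 7 ligands measured, Il2, Lif, Il21 by its brighter probe and Ifng, were more than 2-fold higher in Nr4a-TKO and 0 were lower. Of all genes, 1.74% were that much higher and 1.94% that much lower. Ifng was well above background only on the Nr4a-TKO 3 h array. It thus entered the 7 through the array where it was high, and its difference of 1.15 is a lower bound.

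**Figure D4:**
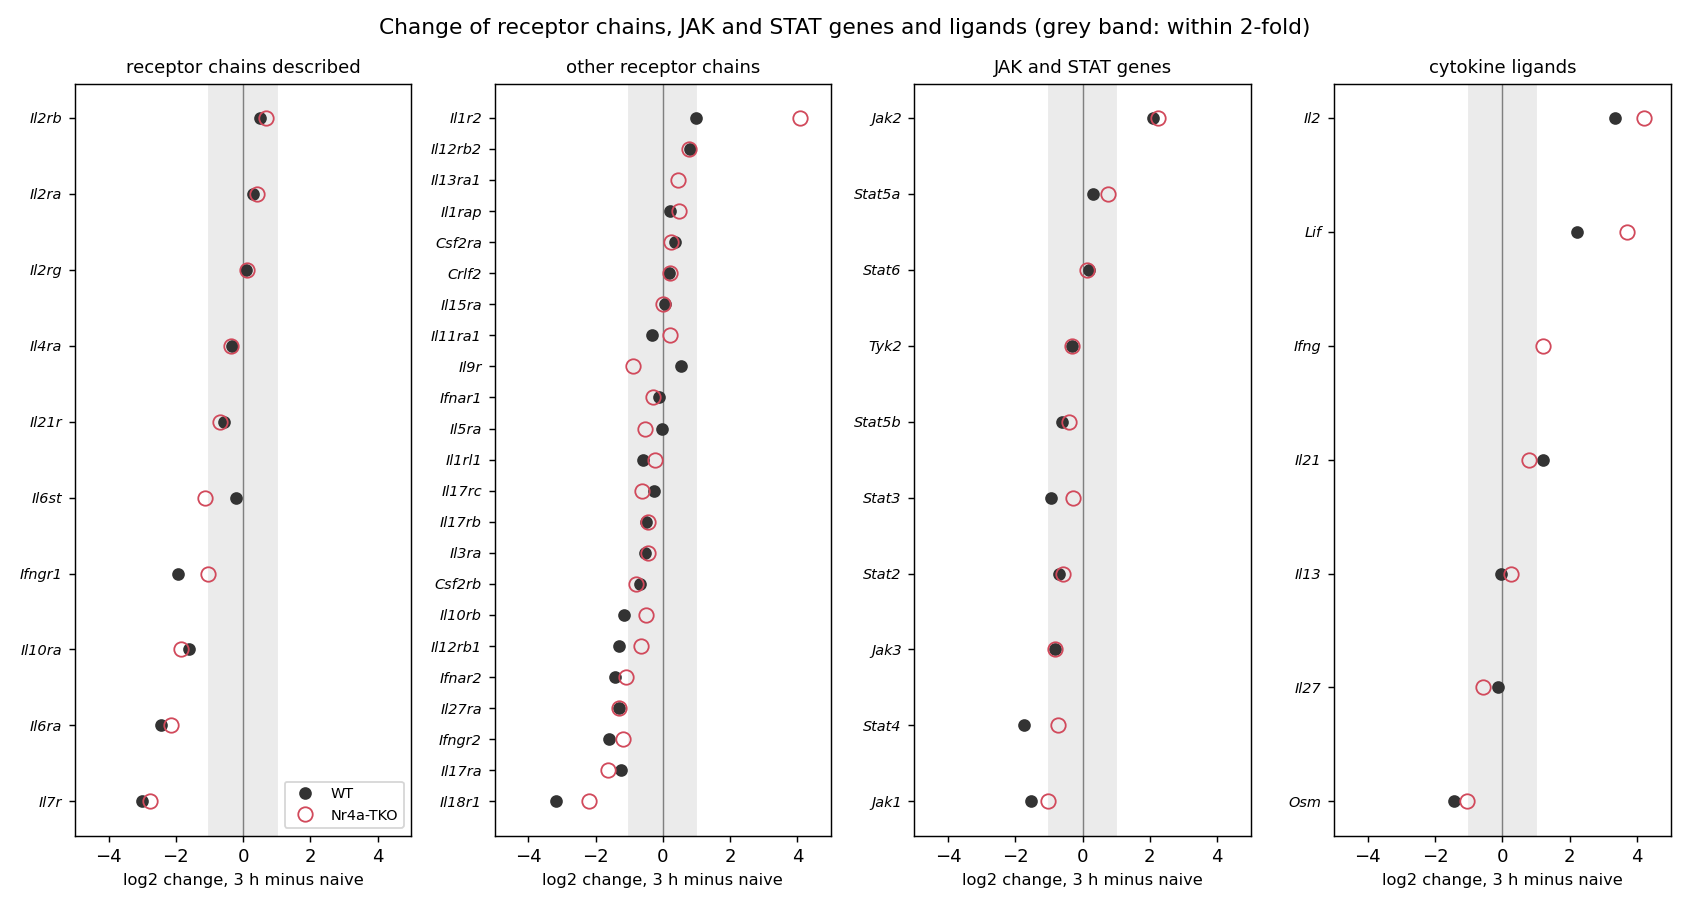
Log2 change from naive T cells to 3 h of iTreg culture (horizontal axes) of the receptor chains described, the other receptor chains, the JAK and STAT genes and the ligands (vertical axes, 1 gene a row, brightest probe), in WT (filled) and Nr4a-TKO (open), with the 2-fold band in grey. Most receptor chains lie at or left of 0. Jak2 and the ligands Il2 and Lif lie to the right, and the ligand Osm lies to the left.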

How the data were processed

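Per the labels, total RNA was labelled with Cy3 and hybridised to 4 Agilent arrays, 1 a group, and spots were read with Agilent Feature Extraction 11.5.1.1. The deposited files hold the mean, background and processed intensity of each spot, and the authors' table holds log2 values, found here to be the log2 processed intensity less a constant for each array, with the 75th percentile at 0, while the methods name RMA. From the deposited intensities, limma 3.58.1 (R 4.3.3) gave normexp background correction (offset 0) and quantile normalization. Control spots and 115 to 160 outlier spots an array were left out, and spots of a probe were averaged. A gene was read from its brightest probe by mean. A signal not well above background was replaced by the lowest signal well above background on that array where that was higher, and the difference is then a bound. No arrays were replicated, so a change past 2-fold is a size and not a test. The counting was checked on simulated data. Members, lists and motifs were chosen with earlier results of these data known. All members and probes are named, with list genes past 2-fold, at most 6 a list, and others chosen after their values were seen. Alternatives were scaling to the 75th percentile, the deposited values, an offset of 50, no background correction, other filters, other probe choices and folds of 1.5 and 3. Probe positions are those of the files (mm9), with gene parts not annotated here, as the reference tables are on GRCm38.p6. Some genes of the lists are not reported here, and the counts leave them out.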

Additional observations from a re-analysis of the deposited data

Results flagged for a closer look

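The dimmest of the 3 Il6st probes, which starts at 113273739 on chromosome 13 (mm9), moved up from naive T cells to 3 h in WT (0.19 on the log2 scale) and down in Nr4a-TKO (-0.50), so that the 2 changes differed by -0.69. The WT change is no larger than the spot spread at that signal, and the difference between the genotypes was not tested, with 1 array a group.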

How the results depend on the processing

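Of 75 probe changes and differences, 70 to 75 kept their sign under 4 other ways of processing the arrays, and of 17 past 2-fold 13 to 15 stayed past it. The counts of genes more than 2-fold lower after culture went from 4 to 3 in WT with an offset of 50, with no background correction and among genes well above background on all 4 arrays. In Nr4a-TKO they went from 5 to 4 under the latter 2, the 75th percentile and the deposited values, and to 6 at 1.5-fold. Larger moves of the counts were these. With the mean of all probes, 1 gene (Il2ra) was higher at 3 h in WT and 1 in Nr4a-TKO, 3 were lower in Nr4a-TKO, and 0 were lower in Nr4a-TKO than WT at 3 h. With the brightest probe for a RefSeq transcript, chosen after seeing the data, 1 gene (Il2ra) was higher in WT and 1 in Nr4a-TKO. At 1.5-fold, 1 gene (Il2rb) was higher in Nr4a-TKO after culture, and 2 (Il2rb and Ifngr1) were higher in Nr4a-TKO than WT at 3 h. At 3-fold, 3 were lower in Nr4a-TKO after culture and 0 were lower in Nr4a-TKO than WT at 3 h. With an offset of 50, 3 were lower in Nr4a-TKO after culture, as Ifngr1 (-0.81) and Il10ra (-0.56) came within 2-fold. An offset shrinks dim signals by construction, and for the other moves the cause was not tested beyond the change of probe or threshold itself. Scaling to the 75th percentile put the Nr4a-TKO change of Il6st at -0.91 and the deposited values at -0.89, both within 2-fold, and the WT change of Il6st at -0.01 and 0.01. Under that scaling the median of all genes in WT was -0.11. No paired analysis was possible because each group has 1 sample. Dim probes, those of Il10ra and the RefSeq probe of Il2ra in naive cells, are limited by signal over background.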
